A study of Mus musculus with 9 samples.

Results

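The early growth response genes Egr1, Egr2 and Egr3, the orphan nuclear receptors Nr4a1, Nr4a2 and Nr4a3, and Ier2, Ier3, Sik1 and Arc are 10 activity-induced genes that were followed through 9 bulk RNA-seq libraries of mouse heart. They were found by gene symbol, each in 1 row of a table of 55401 rows, and all 10 passed the filter on low counts. The set was chosen by how its genes differed between the groups in these same hearts, so their differences between groups are given as descriptions. How many of them the fits across all genes called is given beside the share or number of all genes called, and supports nothing about the set. The KO-TAC group (n = 3) carried floxed c-Myc alleles (c-Myc flox/flox) and the tamoxifen-inducible Tcf21 iCre, which deletes Myc in cardiac fibroblasts, and had transverse aortic constriction (TAC), in which a band around the aorta raises the pressure the heart works against. The TAC group (n = 3) is labelled wild type with the same surgery. Titles of both groups give 12 weeks. The control group (n = 3) is labelled wild type and control, and the design text speaks of a sham operation. Mice were male and 8 to 12 weeks old at surgery. Tamoxifen at 45 mg/kg was given on 5 days in a row to activate the Cre, and the labels do not say whether wild-type mice received it. Knockout hearts without TAC, and hearts with Cre but no floxed allele, were not analysed here. The effect of the deletion under TAC therefore cannot be told apart from that of the Cre or of the floxed line. The same holds for tamoxifen if wild-type mice did not receive it.

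Activity-induced or immediate early genes are transcribed within minutes of a stimulus from factors already present in the cell, among them SRF with its ternary complex partners, CREB and MEF2, and most of their messages decay fast. In the heart, stretch, adrenergic and calcium signals and hypoxia are known inducers. The Egr proteins are zinc finger transcription factors, and the Nr4a proteins are nuclear receptors that act without a known physiological ligand. Ier2 and Ier3 are short proteins of early growth and stress responses, Sik1 is a kinase that restrains CREB coactivators, and Arc is best known as a synaptic regulator of neurons.

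Total counts per library were 59702513 to 109162107, and mitochondrially encoded genes took 23.8% to 38.5% of them. Levels are given as CPM after TMM scaling of the libraries, and a difference is the log2 ratio of 2 groups fitted by edgeR with its standard error (SE). Myc, the deleted gene, had 3.61 ± 1.53 CPM in KO-TAC hearts, 9.79 ± 4.06 CPM in TAC hearts and 2.06 ± 0.46 CPM in control hearts (SD, n = 3 each). In bulk tissue, fewer cells of a type and less RNA per cell cannot be told apart. Summed markers of heart muscle cells ran from 39580 to 67925 CPM in KO-TAC hearts and from 11589 to 80264 CPM in TAC hearts, and lay between 73448 and 75053 CPM in control hearts. TAC replicate 2 held the highest of these sums and stood apart from the other TAC hearts in most of the 10 genes.

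The Egr genes were high in TAC hearts and low in both other groups. Egr1 (ENSMUSG00000038418), the most abundant of the 3 and known for targets in growth and matrix, stood at 16.6, 10.05 and 11.2 CPM in KO-TAC replicates 1, 2 and 3, at 104, 19.2 and 68.5 CPM in TAC replicates 1, 2 and 3, and at 12.6, 24.9 and 13.1 CPM in the control hearts. TAC replicates 1 and 3 lay far above the rest, whereas TAC replicate 2 lay below control replicate 2. KO-TAC hearts were below every TAC heart. For Egr1 the log2 difference was −2.34 (SE 0.55) in KO-TAC against TAC and 1.92 (SE 0.54) in TAC against control.

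Egr2 (ENSMUSG00000037868, chr10:67535475-67542188, plus strand, GRCm38), best known for its role in myelination and lymphocyte tolerance, lay between 0.429 and 1.082 CPM in 7 of the 9 hearts. It had 1.082, 0.562 and 0.695 CPM in KO-TAC hearts, 9.41, 0.967 and 5.95 CPM in TAC hearts, and 0.750, 0.429 and 0.682 CPM in control hearts. The TAC replicate 2 value lay within the KO-TAC range. Its log2 difference was −2.79 (SE 0.70) in KO-TAC against TAC and 3.13 (SE 0.71) in TAC against control.

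Egr3 (ENSMUSG00000033730, chr14:70077203-70082614, plus strand), a relative that is often induced together with Egr1, was the Egr gene for which the TAC hearts stood clear of all others. It had 1.95, 2.05 and 0.836 CPM in KO-TAC hearts, 10.99, 4.32 and 15.8 CPM in TAC hearts, and 1.31, 0.828 and 1.11 CPM in control hearts. For Egr3 the log2 difference was −2.68 (SE 0.51) in KO-TAC against TAC and 3.26 (SE 0.52) in TAC against control. The fourth member of the family, Egr4, had no read in any of the 9 libraries, where a count of 0 allows up to 3 counts, or 0.0221 to 0.0468 CPM by library. Such limits cover counting error only.

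**Figure D1:**
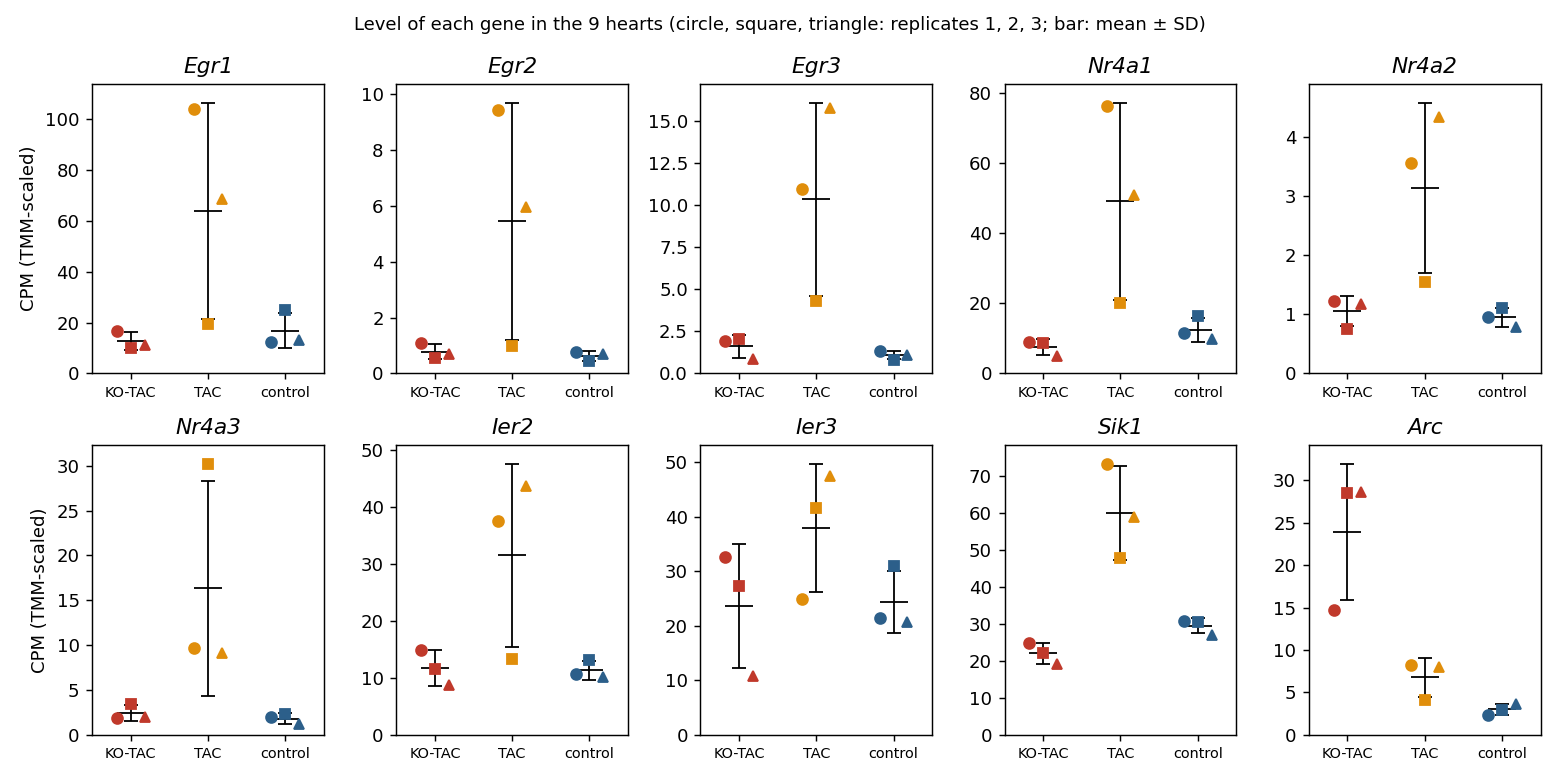
CPM (y axis, linear, from 0) of each of the 10 genes in KO-TAC (red), TAC (orange) and control (blue) hearts, with a symbol per heart and the mean ± SD in black. In 9 panels the TAC hearts hold the highest mean; in the Arc panel the KO-TAC hearts do, at 23.9 CPM.

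The Nr4a genes shared the pattern of the Egr genes, with 1 exception among the hearts. Nr4a1 (ENSMUSG00000023034, chr15:101254269-101274795, plus strand), also called Nur77 and induced by calcium and adrenergic signals, had 9.10, 8.56 and 4.99 CPM in KO-TAC hearts, 76.4, 20.1 and 51.0 CPM in TAC hearts, and 11.5, 16.3 and 9.70 CPM in control hearts. The 3 groups did not overlap: KO-TAC hearts were lowest, below even the control hearts. Nr4a1 had a log2 difference of −2.70 (SE 0.46) in KO-TAC against TAC, 1.98 (SE 0.45) in TAC against control and −0.73 (SE 0.44) in KO-TAC against control.

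Nr4a2 (ENSMUSG00000026826, chr2:57106830-57124003, minus strand), known for its part in dopamine neurons and in inflammation, was scarce. It had 1.23, 0.759 and 1.17 CPM in KO-TAC hearts, 3.55, 1.54 and 4.33 CPM in TAC hearts, and 0.956, 1.10 and 0.789 CPM in control hearts. The TAC hearts lay above all others, and the KO-TAC and control ranges overlapped. The log2 difference was −1.57 (SE 0.42) in KO-TAC against TAC and 1.73 (SE 0.42) in TAC against control.

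Nr4a3 (ENSMUSG00000028341, chr4:48045153-48086447, plus strand), the receptor also called NOR1, had 1.84, 3.41 and 1.96 CPM in KO-TAC hearts, 9.73, 30.2 and 9.07 CPM in TAC hearts, and 2.02, 2.28 and 1.17 CPM in control hearts. Its highest value was in TAC replicate 2, the heart with the lowest TAC value of 8 of the other members. The log2 difference was −2.77 (SE 0.52) in KO-TAC against TAC and 3.16 (SE 0.53) in TAC against control. Without TAC replicate 2 it was −1.97 in KO-TAC against TAC and 2.36 in TAC against control. In the same heart Hspa1a, a heat-inducible chaperone with a near-identical copy (Hspa1b) that makes its count uncertain, had 39.4 CPM, against 9.28 and 19.3 CPM in TAC replicates 1 and 3. The summed level of 8 heat-shock genes was 1291 to 1895 CPM in KO-TAC hearts, 1594 to 2867 CPM in TAC hearts with TAC replicate 2 highest, and 1182 to 1339 CPM in control hearts. Its part in the Nr4a3 value was not tested.

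The motifs through which calcium, cAMP and serum signals act are short enough to be read by eye. Promoter sequences are shown for the Nr4a genes and for Egr2, the members searched that held a motif match. They are RefSeq promoters of GRCm38.p6, from 250 bases before to 50 bases after a start, 5′ to 3′ on the strand of the gene, and capitals mark every motif match. Promoters of 5 of the 10 members were matched by symbol and searched, and Egr1 was left out of the search by choice. Searched on both strands were the short cAMP response element TGACG, its full form TGACGTCA, the Egr sites GCGGGGGCG and GCGTGGGCG, the Nr4a site AAAGGTCA, the AP-1 site TGANTCA, the TATA box TATAAA and the CArG box, to which SRF binds. TGACG lies within TGACGTCA.
Nr4a1 (chr15:101266596-101266895, plus strand): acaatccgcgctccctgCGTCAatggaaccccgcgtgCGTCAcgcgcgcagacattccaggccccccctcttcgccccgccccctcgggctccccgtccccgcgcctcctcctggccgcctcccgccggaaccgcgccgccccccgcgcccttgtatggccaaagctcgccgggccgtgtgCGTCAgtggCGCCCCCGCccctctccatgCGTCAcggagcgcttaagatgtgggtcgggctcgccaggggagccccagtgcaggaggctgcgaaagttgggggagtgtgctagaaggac
Nr4a2 (chr2:57123954-57124253, minus strand): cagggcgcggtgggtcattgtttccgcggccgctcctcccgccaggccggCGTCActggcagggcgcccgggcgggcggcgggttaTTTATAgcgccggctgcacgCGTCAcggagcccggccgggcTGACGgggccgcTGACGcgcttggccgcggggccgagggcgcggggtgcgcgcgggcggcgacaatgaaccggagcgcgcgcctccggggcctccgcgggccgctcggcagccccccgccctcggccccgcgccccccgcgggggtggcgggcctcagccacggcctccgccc
Nr4a3 (chr4:48045055-48045354, plus strand): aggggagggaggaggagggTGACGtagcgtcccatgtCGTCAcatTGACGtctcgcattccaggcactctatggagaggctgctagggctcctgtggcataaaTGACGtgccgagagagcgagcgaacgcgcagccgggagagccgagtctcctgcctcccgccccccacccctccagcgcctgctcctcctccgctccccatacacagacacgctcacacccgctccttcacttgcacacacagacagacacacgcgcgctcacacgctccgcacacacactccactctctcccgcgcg
Egr2 (chr10:67537619-67537918, plus strand): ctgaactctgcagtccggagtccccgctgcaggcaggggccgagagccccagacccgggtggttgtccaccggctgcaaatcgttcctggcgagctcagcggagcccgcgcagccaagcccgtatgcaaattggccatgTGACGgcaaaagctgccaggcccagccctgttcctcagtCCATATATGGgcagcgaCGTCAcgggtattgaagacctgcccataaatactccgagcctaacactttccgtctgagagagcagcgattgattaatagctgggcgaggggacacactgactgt
Each of the 3 Nr4a promoters held 4 matches of the short element, read as TGACG or, on the other strand, as CGTCA. Of the 32851 RefSeq promoters of this length 20.8% held at least 1 such match and 0.231% held at least 4. The cut at 4 was taken from the Nr4a promoters themselves, so nothing is read from how rare it is. Nr4a1 also held 1 Egr site, written CGCCCCCGC on this strand, as did 3.47% of all promoters in 1 form or the other, and Nr4a2 held 1 TATA box on the opposite strand, a motif of 13.6% of promoters. RefSeq gives 5 promoters for Egr2. The one shown held 2 short elements and 1 CArG box, CCATATATGG, a motif found in 1.63% of promoters, and 2 others that overlap it held the same 3 matches. Another that starts further upstream held 1 CArG box, CCTTTTTTGG, and the most upstream one, chr10:67535249-67535548, had no match of any motif searched. The full element (1.79% of promoters), the Nr4a site (1.51%) and the AP-1 site (7.81%) had no match in the promoters of the 5 members. The promoter of Ier3 had no match of any motif, although Ier3 too had its highest mean in TAC hearts. A match is a description of letters, not of binding.

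Ier2 (ENSMUSG00000053560, chr8:84661331-84662852, minus strand), an early nuclear protein of growth responses, was high in TAC replicates 1 and 3. It had 14.9, 11.6 and 8.72 CPM in KO-TAC hearts, 37.5, 13.3 and 43.7 CPM in TAC hearts, and 10.7, 13.2 and 10.1 CPM in control hearts. The TAC replicate 2 value was within the KO-TAC range and just above the highest control value. Ier2 had a log2 difference of −1.42 (SE 0.39) in KO-TAC against TAC and 1.48 (SE 0.40) in TAC against control.

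Ier3 (ENSMUSG00000003541, chr17:35821684-35822923, plus strand), a stress-induced regulator of cell survival also called IEX-1, was the member whose groups overlapped in all 3 comparisons. It had 32.7, 27.4 and 10.8 CPM in KO-TAC hearts, 24.9, 41.7 and 47.4 CPM in TAC hearts, and 21.5, 31.0 and 20.7 CPM in control hearts. Here TAC replicate 1, the heart with the most Egr1, was the lowest TAC heart. The log2 difference was −0.69 (SE 0.40) in KO-TAC against TAC and 0.64 (SE 0.40) in TAC against control.

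Sik1 (ENSMUSG00000024042, chr17:31844250-31855804, minus strand), the salt-inducible kinase that phosphorylates CREB coactivators and class IIa histone deacetylases, had the tightest groups of the set. It had 24.7, 22.1 and 19.1 CPM in KO-TAC hearts, 73.1, 47.7 and 58.7 CPM in TAC hearts, and 30.7, 30.6 and 27.1 CPM in control hearts. The 3 groups did not overlap, and KO-TAC hearts were lowest. The log2 difference was −1.45 (SE 0.20) in KO-TAC against TAC, 1.02 (SE 0.20) in TAC against control and −0.42 (SE 0.20) in KO-TAC against control. The highest TAC heart was 1.53 times the lowest for Sik1, against 5.40 times for Egr1 and 9.73 times for Egr2.

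Arc (ENSMUSG00000022602, chr15:74669083-74672570, minus strand), which encodes a retrovirus-like capsid protein that controls receptor traffic at synapses, was the member with its highest level in KO-TAC hearts. It had 14.7, 28.5 and 28.7 CPM in KO-TAC hearts, 8.21, 4.16 and 7.97 CPM in TAC hearts, and 2.39, 2.96 and 3.62 CPM in control hearts. All 3 groups stood apart, in the order KO-TAC, TAC, control. Arc had a log2 difference of 1.82 (SE 0.34) in KO-TAC against TAC, 1.18 (SE 0.34) in TAC against control and 2.999 (SE 0.36) in KO-TAC against control, or 3.52-fold, 2.27-fold and 8.00-fold higher.

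Since Arc is best known from neurons, markers of neurons are given beside it. The summed level of 12 such markers was 21.2, 15.3 and 9.48 CPM in KO-TAC replicates 1, 2 and 3, 28.1, 11.2 and 36.8 CPM in TAC replicates 1, 2 and 3, and 9.99, 10.1 and 10.3 CPM in the control hearts. Uchl1 held much of these sums, with means of 9.58 CPM in KO-TAC, 17.6 CPM in TAC and 4.81 CPM in control hearts. Dbh averaged 0.605, 0.527 and 1.16 CPM in these groups. Of the 5 neuron markers tested, 4 had a log2 difference above 0 in TAC against control, and Dbh lay below. The neuron markers Syt1 and Chat were at 0 in all 9 hearts. The part of neurons in the level of Arc was not tested. At 0 in every heart of a group were 5 of the 12 markers in KO-TAC, 3 in TAC and 6 in control. Schwann cell markers summed to 4.93 to 9.78 CPM in KO-TAC hearts, 7.81 to 12.6 CPM in TAC hearts and 9.60 to 11.1 CPM in control hearts, with none of 5 at 0 in a whole group.

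Arc lies on the same chromosome as Myc, with 12.7 Mb between their starts. By the labels, KO-TAC hearts alone carried the floxed Myc alleles. Differences of the mouse line on this chromosome therefore cannot be told apart from those of the deletion. Within 500 kb on each side of the Arc start the annotation held 38 genes, and 14 others than Arc were tested. The window was chosen after the values were seen, so nothing is read from its counts beside the shares of all genes. Of these 14 genes, 3 lay above and 1 lay below TAC with no overlap in KO-TAC hearts, beside 5.17% and 4.80% of all genes, and their median log2 difference was −0.23 with 7 above 0. In KO-TAC against control 4 lay wholly above and 3 wholly below, beside 12.9% and 13.6% of all genes, with a median of 0.53 and 10 above 0. In TAC against control 4 lay wholly above and 4 wholly below, beside 14.1% and 14.0%, with a median of 1.06 and 10 above 0. Jrk, 37.0 kb from Arc, had 3.74, 5.02 and 4.55 CPM in KO-TAC hearts, 2.79, 1.58 and 1.89 CPM in TAC hearts, and 3.28, 4.18 and 2.83 CPM in control hearts, so its KO-TAC range overlapped the control range. An antisense gene model overlaps Jrk, which makes its count uncertain if reads were counted without strand.

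Psca, a surface protein gene 42.3 kb from Arc, had 5.85, 17.9 and 15.9 CPM in KO-TAC hearts and 0, 0.0624 and 0.405 CPM in TAC hearts. It had no read in the 3 control hearts, where a count of 0 allows up to 0.0388, 0.0460 and 0.0359 CPM in replicates 1, 2 and 3. Lypd2, from the same family of surface proteins and 61.8 kb from Arc, went the other way. It had no read in the 3 KO-TAC hearts, which allows up to 0.0221, 0.0422 and 0.0386 CPM, and it had 0.0532, 0.156 and 0.150 CPM in TAC hearts and 0.569, 0.552 and 0.933 CPM in control hearts. Both were among the 4 other genes of the window whose KO-TAC and TAC ranges did not overlap, with Jrk and Ly6k, and all 4 are named after their values were seen. No fold is given for Psca or Lypd2, since a group of each is at 0. Psca passed the low-count filter only through KO-TAC hearts, and Lypd2 only through hearts of the other groups. Nothing is therefore read from their lack of overlap.

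**Figure D2:**
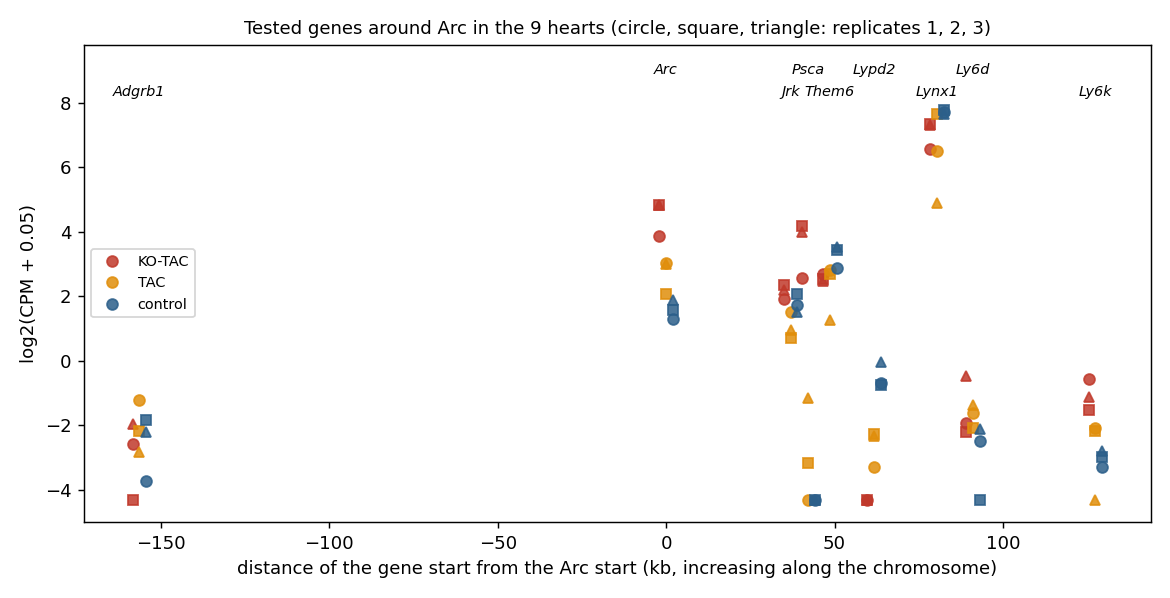
log2(CPM + 0.05) of the tested genes within 160 kb of Arc against the distance of their starts from the Arc start (kb), with a symbol per heart for KO-TAC (red), TAC (orange) and control (blue). Red symbols are on top at Arc and Psca and at the floor at Lypd2, whereas the groups mix at Adgrb1.

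Set side by side, the differences of the 10 genes had 1 direction in TAC against control and all but 1 in KO-TAC against TAC. In KO-TAC against TAC their median log2 difference was −1.96, with 9 below 0 and Arc above, where all 19051 genes tested had a median of 0.01. In TAC against control the median was 1.83 with 10 above 0, where all genes had 0.03. In KO-TAC against control the median was 0.10, with 6 above 0 and 4 below, where all genes had 0.04. These comparisons share their hearts in pairs, so each is given on its own, and the choice of members used all 3 of them.

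The edgeR quasi-likelihood test with Benjamini-Hochberg adjustment called 0 of the 19051 genes at an adjusted p under 0.05, or 0%, in each comparison, and 0 of the 10 members. At an unadjusted p under 0.05 it had 1420 genes in KO-TAC against TAC, with 8 members lower and Arc higher. It had 4054 genes in TAC against control, with 9 members higher, and 1098 genes in KO-TAC against control, with Arc higher. DESeq2 called Arc higher and 7 members lower in KO-TAC against TAC, beside 0.413% of genes called higher and 0.628% called lower. It called 9 members higher in TAC against control, beside 5.68% of genes, and Arc alone of the members in KO-TAC against control, beside 0.305% of genes called higher. As these values chose the members, nothing about the set is read from the shares.

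Groups that did not overlap were counted in the same way. In KO-TAC against TAC, 6 members lay wholly below (Egr1, Egr3, Nr4a1, Nr4a2, Nr4a3 and Sik1), beside 4.80% of all genes, and Arc lay wholly above, beside 5.17%. In TAC against control, 8 members lay wholly above, all but Egr1 and Ier3, beside 14.1% of all genes, and none below, beside 14.0%. In KO-TAC against control, Arc lay wholly above, beside 12.9%, and Nr4a1 and Sik1 wholly below, beside 13.6%. TAC replicate 2, with its low values, took part in the overlaps of Egr1, Egr2 and Ier2. The heart that reached above it was control replicate 2 for Egr1 and KO-TAC replicate 1 for Egr2 and Ier2.

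**Figure D3:**
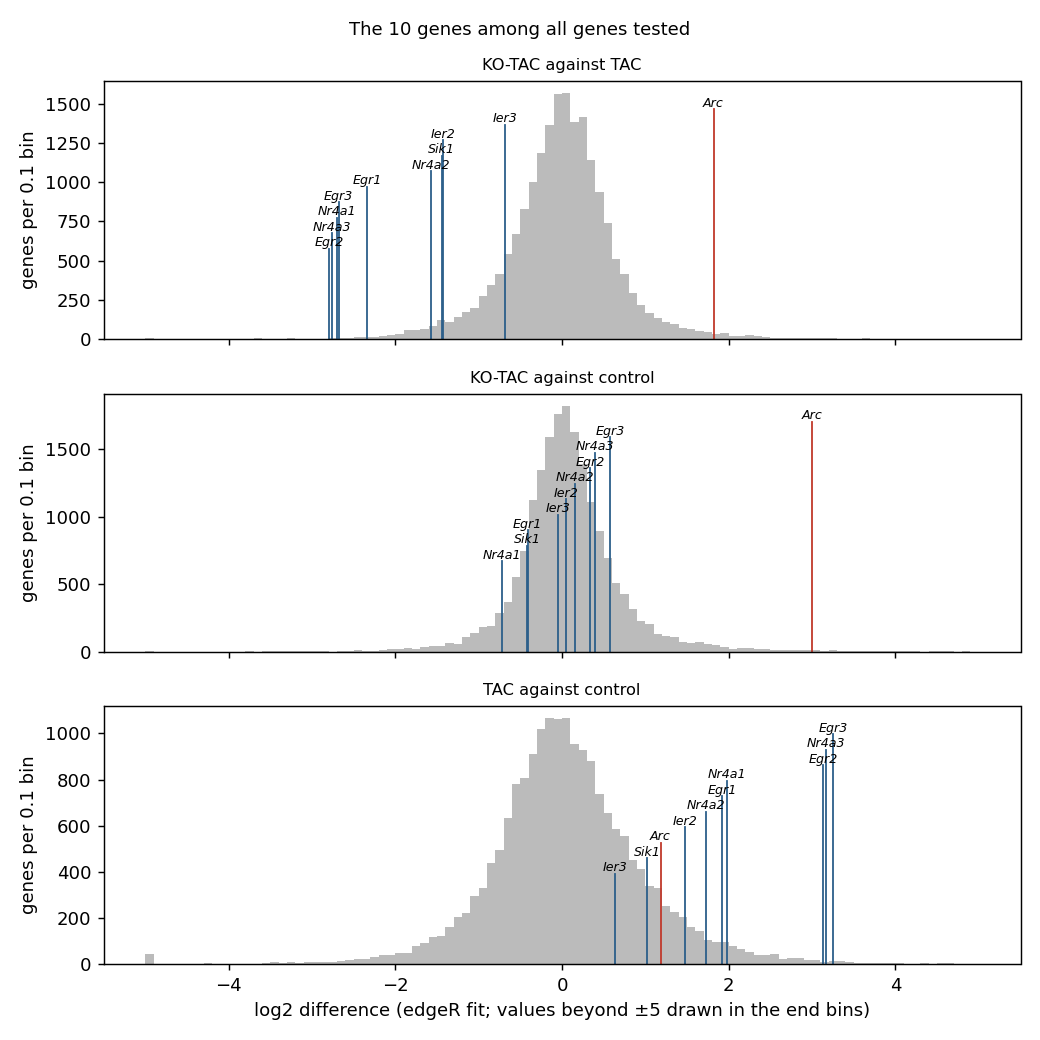
Histogram of the log2 differences of all 19051 genes tested (grey, genes per bin of 0.1) in the 3 comparisons, with a line for each of the 10 genes, Arc in red and the others in blue. In KO-TAC against TAC the blue lines run from −2.79 to −0.69 and Arc stands at 1.82.

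Heart by heart, the set split the TAC group. Centred on the mean of the control hearts, the median of the 10 genes on the log2 scale was 0.39, −0.03 and −0.35 in KO-TAC replicates 1, 2 and 3, and 2.17, 0.70 and 2.08 in TAC replicates 1, 2 and 3. All 10 genes exceeded every control heart in TAC replicate 3, and 9 did in each of TAC replicates 1 and 2. In the KO-TAC hearts 6, 3 and 2 genes exceeded every control heart, and 2, 4 and 5 lay below every control heart. TAC replicate 2 was the lowest TAC heart for 8 genes, all but Nr4a3 and Ier3, and KO-TAC replicate 1 was the highest KO-TAC heart for 7 genes.

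Markers of cell types also differed between the TAC hearts. Summed endothelial markers were 1464, 1139 and 1357 CPM in KO-TAC replicates 1, 2 and 3, 2104, 1197 and 3021 CPM in TAC replicates 1, 2 and 3, and 1166 to 1247 CPM in control hearts. Summed fibroblast markers were 1896, 1781 and 1615 CPM in KO-TAC hearts, 2898, 1393 and 3325 CPM in TAC hearts, and 1288 to 1470 CPM in control hearts. In TAC against control 7 of the 8 endothelial markers had a log2 difference above 0, and Kdr had −0.18. All 8 fibroblast markers lay above 0, with Pdgfra at 0.13 and Tcf21 at 0.096. Single genes weighed heavily in these sums. Fabp4 averaged 937 CPM in TAC and 410 CPM in control hearts, and Postn 510 and 30.1 CPM. TAC replicates 1 and 3, with most of the high values of the 10 genes, were thus the hearts with the highest endothelial and fibroblast sums and with heart muscle sums of 37452 and 11589 CPM. No marker of the 3 lists was at 0 in a whole group. Summed macrophage markers ran from 210 to 348 CPM in KO-TAC hearts, from 185 to 361 CPM in TAC hearts and from 206 to 224 CPM in control hearts. Smooth muscle and pericyte markers summed to 613 to 779 CPM in KO-TAC hearts, 486 to 881 CPM in TAC hearts and 704 to 753 CPM in control hearts. The part of cell composition in the levels of the 10 genes was not tested.

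**Figure D4:**
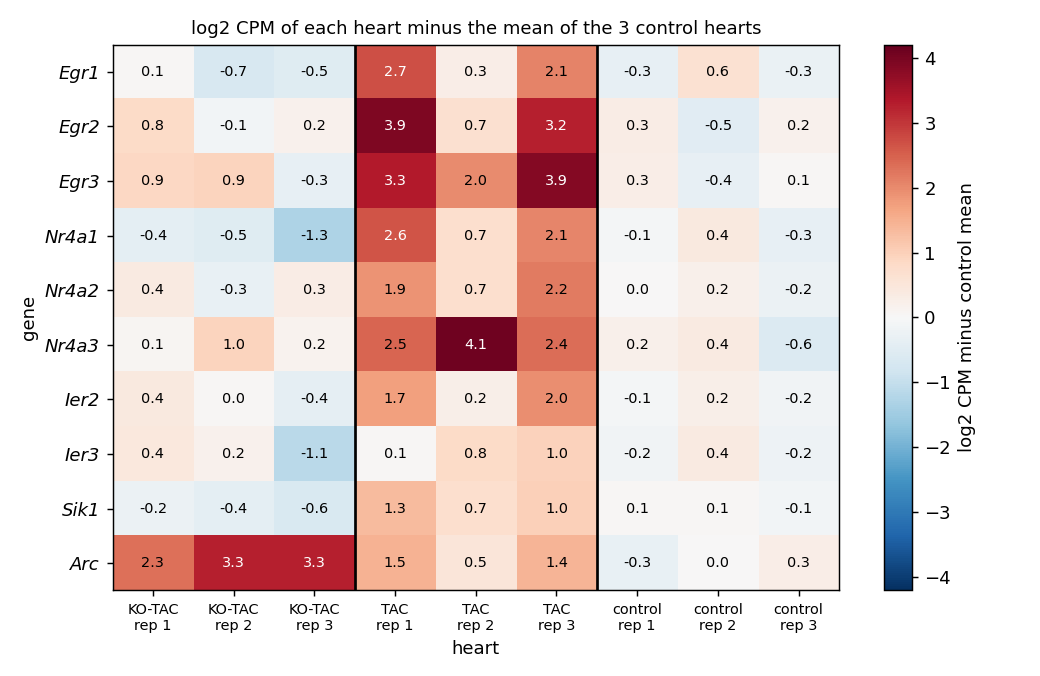
log2 CPM of each gene (rows) in each heart (columns) minus the mean of the 3 control hearts, from blue (below) to red (above). The 2 reddest TAC columns are replicates 1 and 3; the Arc row is reddest in the KO-TAC columns and the Nr4a3 row in TAC replicate 2.

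Per kb of exon the order of the genes differed between the groups, and Arc moved most. In KO-TAC hearts Ier3 led with 20.9 ± 10.1 CPM per kb, and Arc followed with 7.83 ± 2.62 and Ier2 with 7.71 ± 2.03 (SD, n = 3). In TAC hearts Ier3 had 33.6 ± 10.4, Ier2 20.7 ± 10.5, Egr1 14.3 ± 9.49 and Nr4a1 14.01 ± 8.02, whereas Arc had 2.22 ± 0.74 and ranked 8th. In control hearts Ier3 had 21.6 ± 5.06, Ier2 7.45 ± 1.09 and Sik1 5.74 ± 0.40, and Arc with 0.98 ± 0.20 ranked 6th. Neighbours in these orders mostly overlapped, as Arc did with Ier2 in KO-TAC hearts and Egr1 with Nr4a1 in TAC hearts. Egr2 and Nr4a2 took the lowest ranks in every group, with 0.229 and 0.259 CPM per kb in KO-TAC hearts, 1.60 and 0.774 in TAC hearts, and 0.183 and 0.234 in control hearts.

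Likeness of pattern was measured as the root-mean-square difference of log2 CPM over the 9 hearts, each gene centred on its control mean, among 12452 genes. Within the set, Nr4a2 and Ier2 were closest at 0.311, followed by Egr1 and Nr4a1 at 0.364. Arc was the farthest member for each of the 9 others, at 1.71 from its nearest, Nr4a2. The gene closest to the mean profile of the set was Rgcc, a cell cycle regulator, at 0.221, with 32.9, 23.4 and 17.8 CPM in KO-TAC hearts, 72.8, 41.8 and 67.2 CPM in TAC hearts, and 16.8, 19.3 and 22.3 CPM in control hearts. Tcim, Crybb3, Pxdc1 and Cd44 followed at 0.280 to 0.292.

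For single members the closest genes were in part immediate early genes themselves. Apold1, an early gene of endothelial cells, was closest to both Nr4a1 at 0.229 and Egr1 at 0.329, with 10.96, 8.99 and 6.92 CPM in KO-TAC hearts, 56.8, 21.5 and 58.0 CPM in TAC hearts, and 12.3, 19.3 and 10.5 CPM in control hearts. Klf2, a flow-induced endothelial transcription factor, was closest to Ier2 at 0.178, and Slc25a25, a mitochondrial carrier, was closest to Sik1 at 0.182. Plk3 was closest to Nr4a2 at 0.273, Rfx2 to Ier3 at 0.239, Thbs1 to Egr3 at 0.370 and Ptgs2 to Egr2 at 0.634. Hspa1a was closest to Nr4a3 at 0.493.

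Arc was closest to H2ac18 at 0.392, a histone gene whose near-identical copies make its count uncertain. H2ac18 had 12.9, 15.0 and 11.3 CPM in KO-TAC hearts, 5.42, 4.18 and 5.69 CPM in TAC hearts, and 1.51, 2.48 and 2.61 CPM in control hearts. The groups stood in the same order as those of Arc, with no overlap.

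Of 40 other immediate early genes 39 were tested, and edgeR called none in any comparison. At an unadjusted p under 0.05 edgeR had 27 in KO-TAC against TAC, 28 in TAC against control and 9 in KO-TAC against control. Of all 19051 genes, 1420, 4054 and 1098 passed that threshold in these comparisons. How many of all genes DESeq2 and limma-voom called is given in the closing section, for this list and those that follow. Of the 39 genes, DESeq2 called 19, 25 and 0 in these comparisons, and limma-voom 23, 29 and 5. In KO-TAC against TAC 38 had a log2 difference below 0 and 1 above, with a median of −1.07, where 50.8% of all genes lay above 0. In TAC against control 37 lay above 0 and 2 below, with a median of 1.09, where 51.5% of all genes lay above 0. In KO-TAC against control 17 lay above and 22 below, with a median of −0.14 that was 0.13 when only library size scaled the counts. The list shares its hearts with the set and was drawn up with results known, so it is no independent check.

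Jund and Per1 had the highest means of this list over the 9 hearts, an order that did not hold within every group. Jund, an AP-1 subunit, had 71.8 ± 0.83 CPM in KO-TAC hearts, 108 ± 9.82 CPM in TAC hearts and 67.2 ± 6.26 CPM in control hearts. Per1, an early gene that also belongs to the circadian clock, had 6.81 to 93.3 CPM in KO-TAC hearts, 89.4 to 172 CPM in TAC hearts and 57.3 to 82.2 CPM in control hearts, so its KO-TAC range spanned the whole control range. Fos, Junb and Atf3, further transcription factors of the list that are named after their values were seen, averaged 0.870, 12.6 and 3.14 CPM in KO-TAC hearts. The same 3 genes averaged 10.8, 39.7 and 21.8 CPM in TAC hearts, and 2.89, 14.7 and 3.25 CPM in control hearts.

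Regulators upstream of these genes (SRF, CREB and MEF2 factors, their coactivators, histone deacetylases and kinases) showed no common direction. Of 30 regulators 29 were tested, and in KO-TAC against TAC 17 lay above 0 and 12 below with a median of 0.05. There edgeR called none, with 3 at an unadjusted p under 0.05 beside 1420 of all 19051 genes. DESeq2 called none and limma-voom called 2. For TAC against control edgeR called 0, with 10 at an unadjusted p under 0.05 beside 4054 of all 19051 genes. DESeq2 called 4 of the regulators and limma-voom 18, where limma-voom also called a large share of all genes (closing section). In TAC against control 12 lay above and 17 below with a median of −0.13, which was 0.10 with library size alone. Mef2d had 131 ± 16.5 CPM in KO-TAC hearts, 126 ± 15.4 CPM in TAC hearts and 173 ± 15.2 CPM in control hearts. Prkaca, a catalytic subunit of protein kinase A, had 166 ± 45.6 CPM in KO-TAC hearts, 112 ± 92.0 CPM in TAC hearts and 202 ± 7.35 CPM in control hearts.

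Relatives and partners of the members, such as the corepressors Nab1 and Nab2, the kinases Sik2 and Sik3 and the retinoid X receptors, were likewise mixed. Of 11 genes 10 were tested. Of these, edgeR called 0 in KO-TAC against TAC, with 3 at an unadjusted p under 0.05 beside 1420 of all 19051 genes. There DESeq2 called 1 and limma-voom 2. For TAC against control edgeR called 0, with 4 at an unadjusted p under 0.05 beside 4054 of all 19051 genes. DESeq2 called 2 of the list and limma-voom 8, where limma-voom also called a large share of all genes (closing section). Above 0 in KO-TAC against TAC lay 5 and below it 5, with a median of −0.06, and in TAC against control 5 lay above and 5 below with a median of −0.02, which was 0.25 with library size alone. Sik3, a relative of Sik1, had 57.1 ± 15.2 CPM in KO-TAC hearts, 56.2 ± 29.6 CPM in TAC hearts and 72.2 ± 1.98 CPM in control hearts. Rxra, a partner receptor of Nr4a1 and Nr4a2, had 47.9 ± 11.2 CPM in KO-TAC hearts, 41.0 ± 16.3 CPM in TAC hearts and 63.7 ± 5.06 CPM in control hearts.

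All of 10 genes known as Egr1 targets were tested. Of these, edgeR called 0 in KO-TAC against TAC, with 5 at an unadjusted p under 0.05 beside 1420 of all 19051 genes. There DESeq2 called 1 and limma-voom 4. For TAC against control edgeR called 0, with 6 at an unadjusted p under 0.05 beside 4054 of all 19051 genes. DESeq2 called 4 of the list and limma-voom 7, where limma-voom also called a large share of all genes (closing section). Below 0 in KO-TAC against TAC lay 9 and above it 1, with a median log2 difference of −0.63, and in TAC against control 8 lay above and 2 below, with a median of 0.73. Vegfa, the growth factor of blood vessels, had 366 ± 39.6 CPM in KO-TAC hearts, 506 ± 183 CPM in TAC hearts and 268 ± 31.4 CPM in control hearts. The list shares Nab1 and Nab2 with the partners.

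All of 8 heat-shock genes were tested. Of these, edgeR called 0 in KO-TAC against TAC, with 3 at an unadjusted p under 0.05 beside 1420 of all 19051 genes. There DESeq2 called 3 and limma-voom 2. For TAC against control edgeR called 0, with 5 at an unadjusted p under 0.05 beside 4054 of all 19051 genes. DESeq2 called 3 of the list and limma-voom 3, where limma-voom also called a large share of all genes (closing section). Below 0 in KO-TAC against TAC lay 7 and above it 1, with a median of −0.52, and in TAC against control 8 lay above 0 with a median of 0.82. Hspa8, a constitutive chaperone, had 1086 ± 178 CPM in KO-TAC hearts, 1332 ± 441 CPM in TAC hearts and 811 ± 72.6 CPM in control hearts. Bag3, a cochaperone of muscle, had 203 ± 59.4 CPM in KO-TAC hearts, 200 ± 136 CPM in TAC hearts and 183 ± 5.45 CPM in control hearts.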

How the data were processed

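Total RNA of mouse heart was made into libraries with a directional NEBNext kit, per the labels' protocols. The authors deposited 1 table of raw counts per gene symbol for 9 libraries, and all 9 columns were used. Per the submitters' processing notes, HISAT2 2.2.1 was used, as were Trim Galore 0.6.10, StringTie 2.2.1, DESeq2 1.42.0 and SAMtools 1.15, and the builds named are mm10 and GRCm38. Counting tool, annotation and strand setting: not given in the sources used here. If reads were counted without strand, those of overlapping genes could not be separated, and no annotated gene overlaps a member.

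The members and gene lists were chosen with earlier results of these data known. All 9 libraries entered 1 edgeR 4.0.16 fit (R 4.3.3; glmQLFit and glmQLFTest, two-sided, TMM factors, group as the only term) on the deposited counts after filterByExpr with a minimum count of 10, which kept 19051 genes. Adjusted p is Benjamini-Hochberg over these genes, with a threshold of 0.05, and SE is the difference divided by the root of F. The biological coefficient of variation was 42.1%. Log2 CPM used a prior count of 2, and CPM per kb used the union of exons. Since no label ties each library to a separate mouse, p-values reflect the spread of these libraries, which may be technical. The fit was tested on simulated counts. Their spread between replicates was set below that of these libraries, so the simulation does not show how many differences the fit would miss here. Named genes were the 10 members, the 2 most abundant genes of each list and the nearest patterns, and exceptions are marked. Of the genes that this rule selects, some are not reported here. Symbols were matched to GENCODE's annotation of GRCm38, where 18591 of the 19051 tested were found once, and promoters came from RefSeq. Protein sequences were not analysed here. Alternatives were limma-voom (limma 3.58.1) with quality weights, DESeq2 1.42.0, RLE factors or no scaling beyond library size, no filter or 1 CPM in 3 libraries, a replicate block, a fit to just the 2 groups compared, mitochondrial genes removed, repeated symbols summed, and leaving out each library.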

Additional observations from a re-analysis of the deposited data

How the results depend on the processing

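The number of calls depended on the tool and on TAC replicate 2. Each member kept its sign in 19 of 19 alternatives in KO-TAC against TAC and in TAC against control. In KO-TAC against control, Ier2 kept it in 17 of 19, with values of −0.16 to 0.32, and Ier3 in 16 of 19, with values of −0.35 to 0.30. In KO-TAC against TAC, edgeR called 0 genes and 0 members. There DESeq2 called 194 of 18642 genes and 8 members, and limma-voom with quality weights called 996 of 19051 genes and 9 members. As the members were chosen by these values, nothing about the set is read from their counts. Leaving out 1 library at a time gave 0 to 13 genes and 0 to 6 members, with both highest counts without TAC replicate 2. In TAC against control, DESeq2 called 1626 of 19012 genes and 9 members, and limma-voom 7230 of 19051 genes and 9 members. These counts over all genes are also the background of the list counts above. Leaving out 1 library gave 0 to 5477 genes and 0 to 9 members, again highest without TAC replicate 2, and 1 and 2 genes without TAC replicates 1 and 3. In KO-TAC against control, DESeq2 called 89 genes, limma-voom 991, the fit without a low-count filter 2, the fit to only the 2 groups compared 30, and leaving out 1 library 0 to 4. The member called was Arc, 1 of 10, in each of the first 4 and without TAC replicate 2, and leaving out 1 library gave 0 to 1. The cause was not tested. Library size alone moved the median of all genes to 0.29 in TAC against control and 0.28 in KO-TAC against control, so that list medians near 0 in these 2 comparisons changed sign: in KO-TAC against control to 0.13 for the other immediate early genes, 0.10 for the upstream regulators and 0.02 for the partners, and in TAC against control to 0.10 for the upstream regulators and 0.25 for the partners. For single members, Egr2 was at 2.47 in TAC against control and −2.14 in KO-TAC against TAC without TAC replicate 1, and Nr4a3 at −1.97 in KO-TAC against TAC and 2.36 in TAC against control without TAC replicate 2. Deviations of same-numbered hearts correlated at −0.25 to 0.12, and those of different-numbered hearts at −0.43 to 0.36. Same-numbered hearts were thus no more alike, but 3 hearts per group cannot exclude a pairing. With the replicate block, 0 genes and 0 members were called in each comparison, and the median of the members was −1.90, 1.67 and 0.05 in KO-TAC against TAC, TAC against control and KO-TAC against control.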
